A study of Homo sapiens with 12 samples.

Results

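The sterol and fatty acid synthesis genes are 33 human genes of the mevalonate pathway, the steps from squalene to cholesterol, the SREBP control system, sterol transport and fatty acid synthesis. They were taken by name, as the rows of the count table whose Ensembl identifier maps to a listed symbol, and all 33 were found among the 20015 genes of the table. By branch they are 7 mevalonate genes (ACAT2, HMGCS1, MVK, PMVK, MVD, IDI1 and FDPS), 11 genes from squalene to cholesterol (FDFT1, SQLE, LSS, CYP51A1, TM7SF2, MSMO1, NSDHL, HSD17B7, EBP, SC5D and DHCR7), 5 of SREBP regulation (SREBF1, SREBF2, SCAP, INSIG1 and INSIG2), 2 of sterol transport (STARD4 and NPC1) and 8 of fatty acid synthesis (ACLY, ACACA, FASN, SCD, ELOVL6, FADS1, FADS2 and LPIN1). RNA was sequenced from HT29 cells, a human colorectal adenocarcinoma line that here also expressed the Cas9 nuclease. There were 3 libraries in each of 4 groups: QRICH1 KO cells with tunicamycin (QRICH1 KO Tm), WT cells with tunicamycin (WT Tm), QRICH1 KO cells with the solvent (QRICH1 KO DMSO) and WT cells with the solvent (WT DMSO). QRICH1 KO cells had received a guide RNA against QRICH1 by lentivirus, and the cells called WT had received a non-targeting guide in the same way, so every group carries Cas9 and a guide. Whether the cells were a clone or a mixed population is not given in the sources used here. Tunicamycin (Tm), given at 0.3 µg/ml for 14 h, blocks N-linked glycosylation and so causes unfolded proteins to build up in the endoplasmic reticulum (ER).

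Cholesterol is built from acetyl-CoA by way of mevalonate, farnesyl diphosphate and squalene, and most of the later enzymes sit in the ER membrane. The transcription factors SREBP-1 and SREBP-2, the products of SREBF1 and SREBF2, are made as ER membrane proteins. When sterols are scarce, SCAP escorts them to the Golgi, where proteases release the active factor, and when sterols are plentiful the INSIG proteins hold SCAP in the ER. The same Golgi proteases also cleave ATF6, a sensor of unfolded proteins, which is why lipid synthesis and ER stress are often studied together.

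The libraries held 6856736 to 17861844 counts, so that a count of 0 allows up to 0.168 to 0.438 counts per 1000000 (CPM), counting error only. All 6 stress genes used as a check were higher with Tm in both genotypes, among them the ER chaperone gene HSPA5 with a mean of 16463 CPM in QRICH1 KO Tm and 27850 CPM in WT Tm, against 1127 CPM in QRICH1 KO DMSO and 1081 CPM in WT DMSO. QRICH1 mRNA measured 26.8, 22.4 and 19.2 CPM in QRICH1 KO Tm and 30.8, 31 and 25.7 CPM in WT Tm, against 23.3, 24.1 and 24.8 CPM in QRICH1 KO DMSO and 22.7, 31.1 and 35 CPM in WT DMSO. It did not pass the test between genotypes (log2 fold change -0.36, adjusted p = 0.352 under Tm and -0.31, adjusted p = 0.577 under DMSO), so mRNA level did not verify the knockout label, and a guide that changes the coding sequence can leave mRNA in place. Epithelial markers such as KRT8, KRT18 and EPCAM were abundant, whereas the intestinal factor CDX2 averaged 0.684 CPM. The 13 markers of blood, vessel and connective tissue cells summed to 3.57 to 6.44 CPM in QRICH1 KO Tm, 2.84 to 3.34 CPM in WT Tm, 4.16 to 5.69 CPM in QRICH1 KO DMSO and 4.57 to 5.44 CPM in WT DMSO, and CD3E had 0 counts in all 12 libraries. Both libraries numbered 3 of QRICH1 KO stood apart in having counts for 14813 genes under Tm and 15340 under DMSO, against 13124 to 14094 in the other 10.

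Before stress, the 33 genes covered a wide range of levels. Per kilobase of exon in WT DMSO, the squalene epoxidase gene SQLE was the highest of them with 74.2 ± 8.65 CPM per kb (SD, n = 3), and its 3 libraries lay above all 3 values of the next gene. The squalene synthase gene FDFT1 and DHCR7, which encodes the last reductase of the pathway, followed with 58.2 ± 5.06 and 54.2 ± 3.07 CPM per kb, and their libraries overlapped. ACLY, which makes cytosolic acetyl-CoA from citrate, had 45.6 ± 0.171 CPM per kb, and the desaturase gene SCD had 37.5 ± 1.15 CPM per kb. At the low end, the phosphatidate phosphatase gene LPIN1 had 0.277 ± 0.119 CPM per kb and the fatty acid desaturase gene FADS1 had 0.195 ± 0.00534 CPM per kb. FADS2, the neighbouring desaturase gene, had 0 to 6 counts a library and did not pass the filter on low counts, so 32 of the 33 genes were tested. The sterol demethylase gene CYP51A1 was counted at 0.367 ± 0.156 CPM per kb, but 2844 of its 3584 exon bases are also exon of AC000120.2, a protein-coding gene on the same strand that had 0 counts in all 12 libraries, so its level is uncertain.

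**Figure D1:**
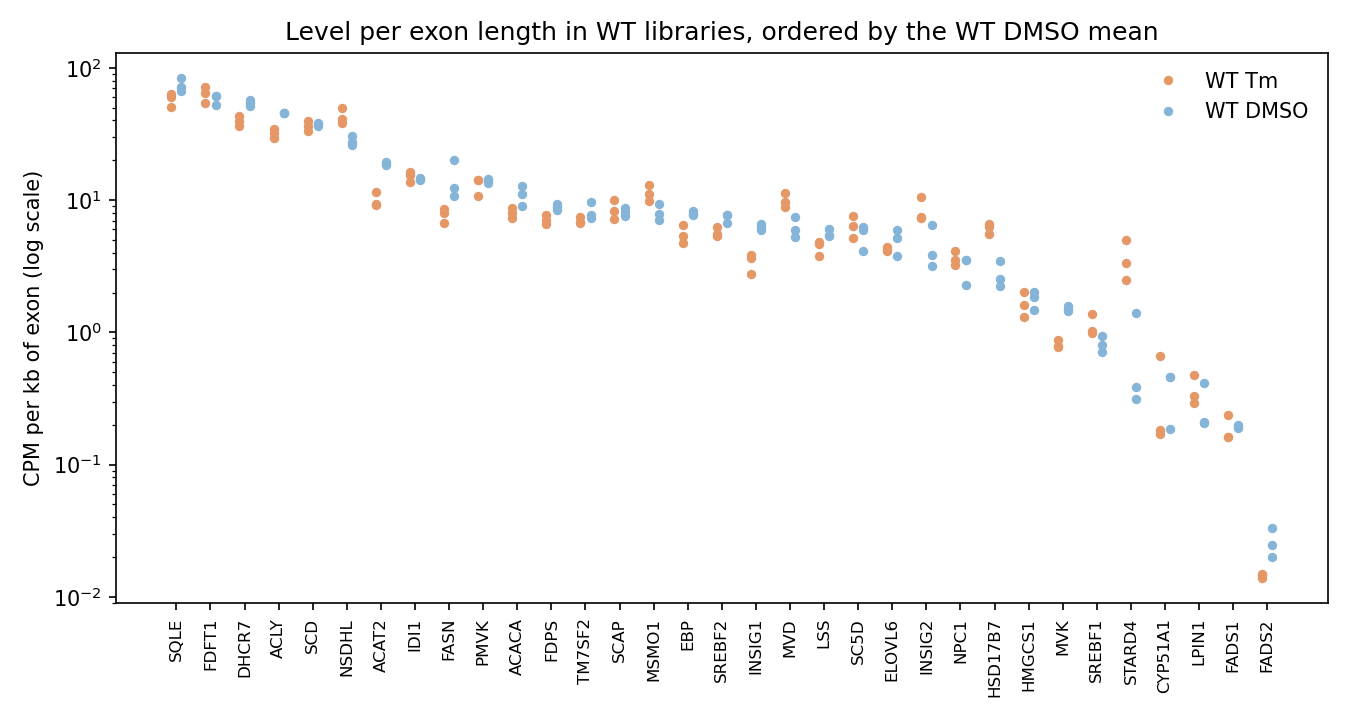
Level of the 33 genes per kilobase of exon (CPM per kb, log scale) in WT Tm and WT DMSO libraries, 1 point a library, ordered by the WT DMSO mean. SQLE stands at the high end with 74.2 CPM per kb in WT DMSO and FADS2 at the low end, and STARD4 has its WT Tm points well above its WT DMSO points.

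With Tm the set did not move in 1 direction. In QRICH1 KO 4 of 32 tested genes rose (12.5%) and 6 fell (18.8%), while in WT 6 rose (18.8%) and 10 fell (31.2%). Of all 11323 genes tested, 9.09% rose and 6.53% fell in QRICH1 KO, and 12.6% rose and 11.1% fell in WT. Both shares of the members were above the background in this fit, but in QRICH1 KO this did not hold in every setting. In bulk RNA, fewer cells with a transcript and less of it in each cell cannot be told apart. They are also more abundant than most genes, with a median level of 33.2 CPM against 16 CPM over all tested genes, and that difference in level was not allowed for. The median log2 change of the members was -0.171 in QRICH1 KO and -0.0723 in WT, beside -0.00387 and -0.0239 over all genes. The 3 Tm and 3 DMSO libraries did not overlap for 17 of the 32 in QRICH1 KO and for 19 in WT, where 32.4% and 37.5% of all genes showed the same. When libraries were scaled by their totals alone, which moved the median of all genes to -0.107 in QRICH1 KO and -0.21 in WT, the counts became 2 higher and 10 lower in QRICH1 KO and 4 higher and 13 lower in WT. In QRICH1 KO 2 rose and 1 fell without DMSO library 2 (6.25% and 3.12%), where 6.26% of all genes rose and 3.38% fell. Without Tm library 3, 3 rose and 1 fell (9.38% and 3.12%), against 6.91% and 3.45% of all genes. Without Tm library 2, 2 rose and 3 fell (6.25% and 9.38%), against 6.7% and 3.78%. Without DMSO library 1, 2 rose and 2 fell (6.25% each), against 6.98% and 3.82%. Without both libraries 3, 3 rose and 2 fell (9.38% and 6.25%), against 6.63% and 4.1%. In QRICH1 KO the members' share of rises was thus below that of all genes in 3 of these settings, and under library totals it was close to it (6.25% against 6.18%). Their share of falls was below that of all genes in 2. The WT count of falls was 6 (18.8%) without DMSO library 1, against 8.87% of all genes, and 6 (18.8%) without DMSO library 2, against 7.88%.

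**Figure D2:**
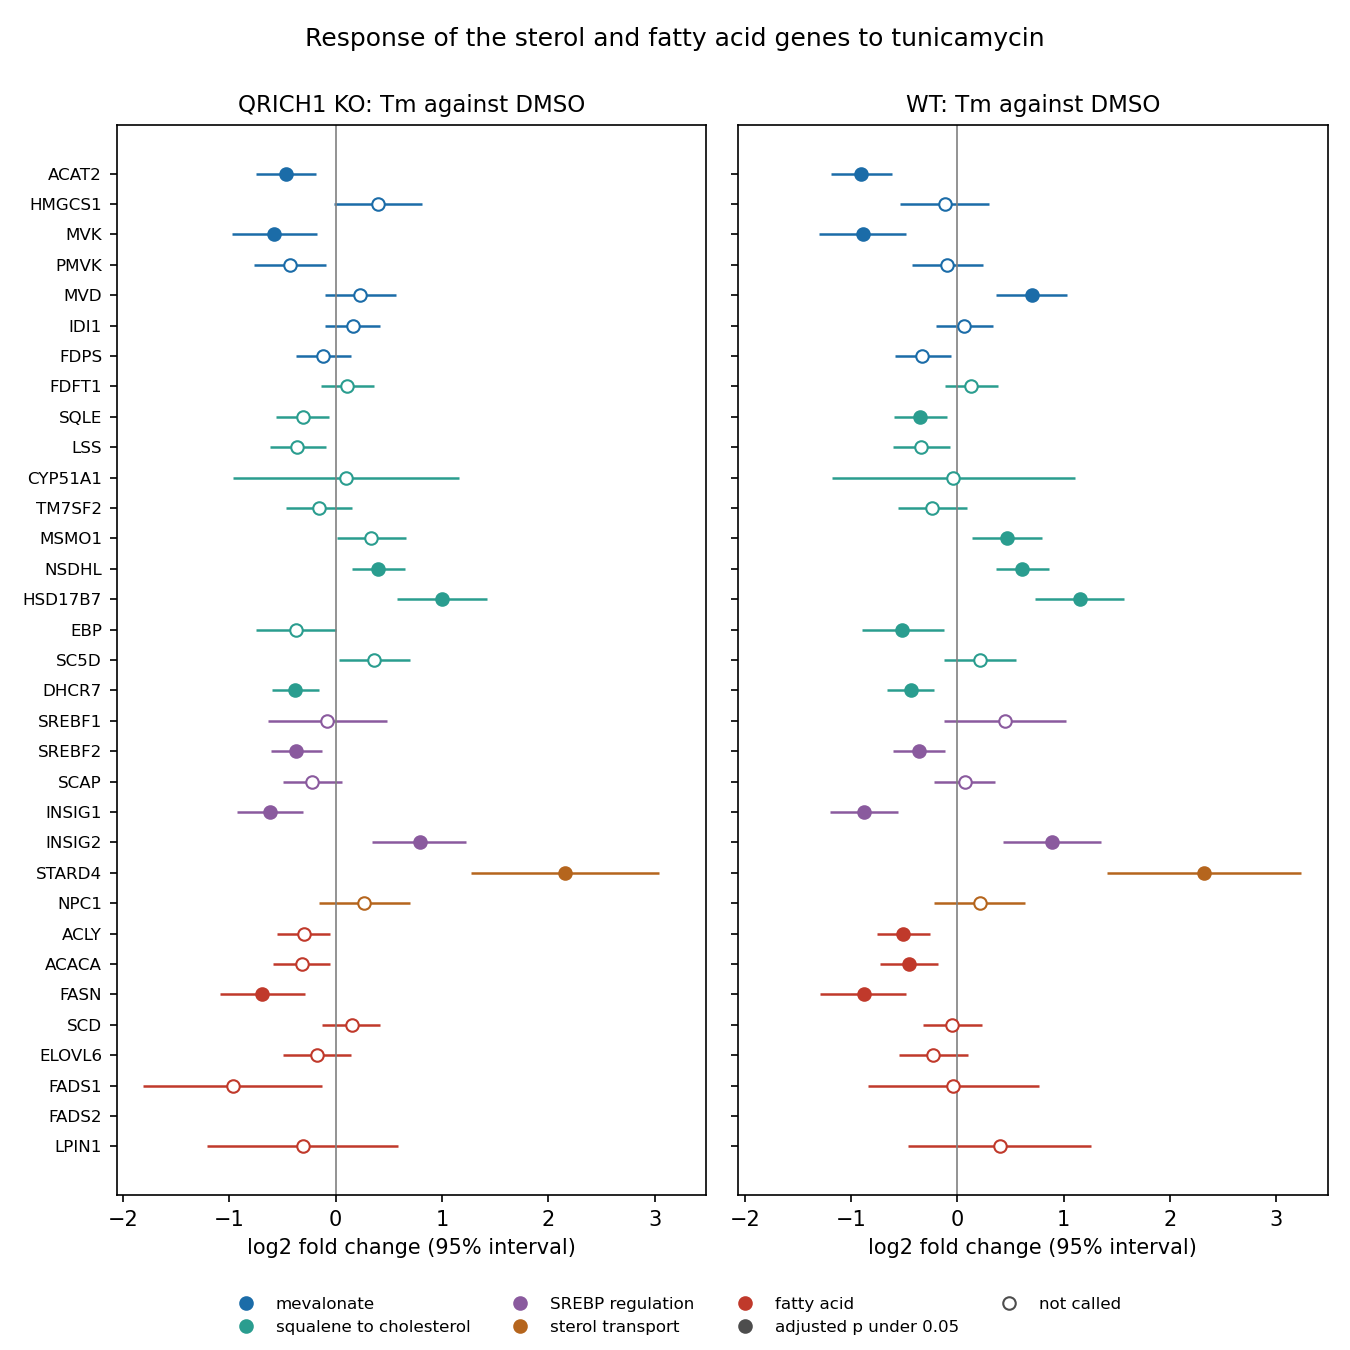
Log2 fold change of each gene with Tm against DMSO, in QRICH1 KO on the left and WT on the right, with 95% intervals and colours for the 5 branches. Filled points passed an adjusted p of 0.05. STARD4 lies farthest to the right in both panels, at 2.16 in QRICH1 KO and 2.32 in WT, and the filled fatty acid points all lie left of 0.

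Promoter windows of 300 bases, from 250 before to 50 after the start of transcription, were read for the members from RefSeq (build GRCh38.p14), and 29 of the 33 had at least 1 window, 41 in all, the others being ACAT2, FASN, FDFT1 and SQLE. Shown here are STARD4 and HSD17B7, which had the largest rises with Tm, MVK and INSIG1, which fell, and SREBF2, the only one with a match to the classical sterol regulatory element. Capitals mark CCAAT on either strand, the letters bound by NF-Y, a factor that works beside SREBP at sterol genes and also forms part of the ER stress element. In SREBF2 capitals also mark the sterol regulatory element match.
STARD4 (chr5:111512486-111512785, minus strand): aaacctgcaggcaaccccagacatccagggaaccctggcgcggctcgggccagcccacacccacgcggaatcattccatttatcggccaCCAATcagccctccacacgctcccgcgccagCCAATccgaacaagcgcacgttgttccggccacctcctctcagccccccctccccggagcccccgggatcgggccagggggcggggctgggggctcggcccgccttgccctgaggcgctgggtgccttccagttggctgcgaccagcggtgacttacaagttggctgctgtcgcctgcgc
HSD17B7 (chr1:162790452-162790751, plus strand): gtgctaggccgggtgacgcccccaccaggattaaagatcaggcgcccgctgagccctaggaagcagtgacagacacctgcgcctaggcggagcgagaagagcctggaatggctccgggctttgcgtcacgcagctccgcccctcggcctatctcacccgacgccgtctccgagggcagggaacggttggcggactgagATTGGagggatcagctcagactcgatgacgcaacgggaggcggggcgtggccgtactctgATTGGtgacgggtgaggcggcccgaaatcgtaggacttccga
MVK (chr12:109573544-109573843, plus strand): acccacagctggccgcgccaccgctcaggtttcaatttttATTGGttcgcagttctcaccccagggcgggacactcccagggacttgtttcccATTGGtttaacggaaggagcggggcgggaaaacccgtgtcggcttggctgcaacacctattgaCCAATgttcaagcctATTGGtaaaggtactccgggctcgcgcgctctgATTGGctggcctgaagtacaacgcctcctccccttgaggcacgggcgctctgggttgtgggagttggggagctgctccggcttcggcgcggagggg
INSIG1 (chr7:155297628-155297927, plus strand): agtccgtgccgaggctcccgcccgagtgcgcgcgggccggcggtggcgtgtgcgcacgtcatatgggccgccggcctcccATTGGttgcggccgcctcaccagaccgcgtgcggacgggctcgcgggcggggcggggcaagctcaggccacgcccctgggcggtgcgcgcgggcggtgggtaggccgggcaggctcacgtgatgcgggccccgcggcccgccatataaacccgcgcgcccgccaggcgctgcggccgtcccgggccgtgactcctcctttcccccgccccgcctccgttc
SREBF2 (chr22:41832855-41833154, plus strand): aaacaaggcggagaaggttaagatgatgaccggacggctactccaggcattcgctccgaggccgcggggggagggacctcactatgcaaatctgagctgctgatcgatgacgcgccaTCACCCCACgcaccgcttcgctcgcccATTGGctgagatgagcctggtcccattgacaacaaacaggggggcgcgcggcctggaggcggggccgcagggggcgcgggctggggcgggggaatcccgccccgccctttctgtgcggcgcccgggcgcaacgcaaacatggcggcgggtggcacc

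CCAAT was found in 24 of the 41 windows (58.5%), belonging to 20 of the 29 genes, against 34.6% of all 35116 human windows of this length and 35.3% of the windows of tested genes. MVK and NSDHL held 5 matches each. The window of STARD4 held 2 on its own strand, at bases -161 to -157 and -130 to -126 from the start, and that of INSIG1 held 1 on the other strand at -170 to -166. Both windows of INSIG2 held 0. The sterol regulatory element letters TCACNCCAC were in 1 member window (2.44%, against 1.13% of all windows), at bases -133 to -125 of SREBF2. The ER stress element, searched as CCAAT, then 9 bases, then CCACG, was in 0 member windows and in 0.0769% of all windows. The letters TGATGNAAN, bound by ATF4 with a C/EBP partner, were in 0 member windows, against 3.61% of all windows and 1.99% of those of tested genes. The E-box CCACGTG was in both overlapping windows of SC5D, against 4.2% of all windows. These are matches of letters in short windows, searched on both strands, and they say nothing about binding in these cells.

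In WT the largest changes in the mevalonate branch were falls of ACAT2, the cytosolic thiolase that makes acetoacetyl-CoA, and MVK, the mevalonate kinase, together with a rise of MVD, the diphosphomevalonate decarboxylase. In QRICH1 KO 0 of 7 rose and 2 fell, and in WT 1 rose and 2 fell. The shares of all tested genes were 9.09% higher and 6.53% lower in QRICH1 KO, and 12.6% higher and 11.1% lower in WT. ACAT2 measured 79, 64.5 and 58.2 CPM in QRICH1 KO Tm and 39.8, 49.9 and 40.1 CPM in WT Tm, against 102, 96.3 and 81.5 CPM in QRICH1 KO DMSO and 83.6, 82 and 78.7 CPM in WT DMSO. The Tm libraries lay below the DMSO libraries of their genotype without overlap, and all 3 WT Tm libraries lay below the QRICH1 KO Tm libraries. Its log2 fold change with Tm was -0.47 (SE 0.131, adjusted p = 0.0207) in QRICH1 KO and -0.91 (SE 0.135, adjusted p = 6.27e-05) in WT. MVK measured 6.03, 7.84 and 5.41 CPM in QRICH1 KO Tm and 5.11, 5.69 and 5.02 CPM in WT Tm, against 8.93, 9.63 and 10.1 CPM in QRICH1 KO DMSO and 9.66, 10.3 and 9.45 CPM in WT DMSO. Again all Tm libraries were below all DMSO libraries, with a log2 change of -0.58 (SE 0.189, adjusted p = 0.0443) in QRICH1 KO and -0.89 (SE 0.196, adjusted p = 0.00265) in WT. MVK shares 306 exon bases with MMAB on the other strand. MMAB averaged 17.3 CPM in QRICH1 KO Tm and 17.4 CPM in WT Tm, against 19 CPM in QRICH1 KO DMSO and 20.6 CPM in WT DMSO. Its log2 change with Tm was -0.13 in QRICH1 KO and -0.22 in WT, neither called. MVD measured 42.7, 37.6 and 32.2 CPM in QRICH1 KO Tm and 45.6, 54 and 41.7 CPM in WT Tm, against 26.3, 35.5 and 34 CPM in QRICH1 KO DMSO and 35, 28.3 and 24.8 CPM in WT DMSO. The WT groups were apart and the QRICH1 KO groups overlapped, and its log2 fold change was 0.23 (SE 0.158, adjusted p = 0.361) in QRICH1 KO and 0.70 (SE 0.16, adjusted p = 0.00364) in WT.

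The other 4 mevalonate genes did not pass the test with Tm. HMGCS1, the HMG-CoA synthase gene, had a log2 change of 0.40 (adjusted p = 0.193) in QRICH1 KO and -0.12 (adjusted p = 0.729) in WT. The values of the isomerase gene IDI1 were 0.16 and 0.06, and those of the farnesyl diphosphate synthase gene FDPS were -0.12 in QRICH1 KO and -0.33 in WT (adjusted p = 0.0677). PMVK, the phosphomevalonate kinase gene, had -0.43 (adjusted p = 0.0844) in QRICH1 KO and -0.10 (adjusted p = 0.721) in WT. The counting strand is not given in the sources used here, and 397 exon bases of ACAT2 are shared with TCP1, 1141 with SOD2 and 1458 with the noncoding SOD2-OT1, all on the other strand. With Tm TCP1 had a log2 change of -0.23 in QRICH1 KO and -0.24 in WT, and SOD2 had 0.16 and 0.21, none of them called. TCP1 was far more abundant than ACAT2. It averaged 728 CPM in QRICH1 KO Tm and 690 CPM in WT Tm, against 855 CPM in QRICH1 KO DMSO and 814 CPM in WT DMSO. Between genotypes under Tm TCP1 had a log2 value of 0.08 and SOD2 of -0.18, neither called. How many reads of these genes were counted for ACAT2 was not tested. In QRICH1 KO the ACAT2 call was lost without Tm library 2 (adjusted p = 0.0844) or 3 (0.105) and without DMSO library 1 (0.0898) or 2 (0.0812), with 0.00275 to 0.105 over all alternatives. The MVK call in QRICH1 KO was lost without Tm library 1 (adjusted p = 0.119) or 3 (0.179) and without DMSO library 1 (0.0733), 2 (0.113) or 3 (0.101), with 0.0193 to 0.276 over all alternatives. It was also lost without both libraries 3 (0.276), without a filter on low counts (0.0965) and with only the 2 groups fitted (0.0836). In WT the calls of ACAT2, MVK and MVD held under all 14 alternatives.

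Between squalene and cholesterol 3 of 11 genes rose and 3 fell in WT. MSMO1, NSDHL and HSD17B7, the oxidase, dehydrogenase and ketoreductase that together strip the methyl groups left on the sterol ring after the CYP51A1 step, were the 3 genes of this branch that rose in WT, a grouping seen only after their values were known. SQLE, EBP, the sterol isomerase, and DHCR7 fell in WT. In QRICH1 KO 2 of the 11 rose (NSDHL and HSD17B7) and 1 fell (DHCR7). Over all tested genes 9.09% rose and 6.53% fell in QRICH1 KO, beside 12.6% and 11.1% in WT. HSD17B7 measured 19, 25.9 and 22 CPM in QRICH1 KO Tm and 26.6, 31.5 and 29.8 CPM in WT Tm, against 8.14, 13.2 and 12.1 CPM in QRICH1 KO DMSO and 12.1, 16.6 and 10.7 CPM in WT DMSO. Every Tm library was above every DMSO library. The rise was 2-fold in QRICH1 KO (log2 1, SE 0.198, adjusted p = 0.00182) and 2.22-fold in WT (log2 1.15, SE 0.198, adjusted p = 0.000309), and it was called under all 14 alternatives in both genotypes. NSDHL measured 84.5, 79 and 71.3 CPM in QRICH1 KO Tm and 76.4, 98.7 and 81.8 CPM in WT Tm, against 60.5, 58.8 and 58.5 CPM in QRICH1 KO DMSO and 54.8, 61.1 and 51.9 CPM in WT DMSO. The groups were again apart, with a log2 change of 0.40 (SE 0.118, adjusted p = 0.0271) in QRICH1 KO and 0.61 (SE 0.119, adjusted p = 0.000889) in WT. MSMO1 measured 32.1, 26.2 and 30.8 CPM in QRICH1 KO Tm and 37.2, 28.7 and 32.2 CPM in WT Tm, against 21.3, 21.6 and 28.2 CPM in QRICH1 KO DMSO and 20.4, 27 and 22.9 CPM in WT DMSO. Its QRICH1 KO groups overlapped and its WT groups did not, with a log2 change of 0.33 (SE 0.155, adjusted p = 0.167) in QRICH1 KO and 0.47 (SE 0.157, adjusted p = 0.0355) in WT.

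EBP measured 18.6, 11.2 and 14.8 CPM in QRICH1 KO Tm and 12.9, 15.6 and 11.4 CPM in WT Tm, against 21.9, 17.9 and 18.5 CPM in QRICH1 KO DMSO and 18.8, 18.7 and 20 CPM in WT DMSO. One QRICH1 KO Tm library reached into the DMSO range, whereas the WT groups were apart, and the log2 fold change was -0.37 (SE 0.178, adjusted p = 0.175) in QRICH1 KO and -0.52 (SE 0.183, adjusted p = 0.0476) in WT. DHCR7 averaged 191 ± 11 CPM in QRICH1 KO Tm and 166 ± 14.5 CPM in WT Tm, against 248 ± 17.6 CPM in QRICH1 KO DMSO and 226 ± 12.8 CPM in WT DMSO (SD, n = 3 each), with a log2 change of -0.38 (adjusted p = 0.0188) in QRICH1 KO and -0.44 (adjusted p = 0.00449) in WT. SQLE, whose product carries out the first oxygen-dependent step, averaged 271 ± 21.8 CPM in QRICH1 KO Tm and 250 ± 29.3 CPM in WT Tm, against 336 ± 23 CPM in QRICH1 KO DMSO and 319 ± 37.2 CPM in WT DMSO. Its log2 fold change was -0.31 (adjusted p = 0.0837) in QRICH1 KO and -0.35 (adjusted p = 0.0369) in WT. The remaining 5 genes were not called. FDFT1 had 0.11 in QRICH1 KO and 0.13 in WT, the lanosterol synthase gene LSS -0.36 and -0.34, CYP51A1 0.10 and -0.04, the sterol reductase gene TM7SF2 -0.16 and -0.24, and the lathosterol oxidase gene SC5D 0.36 and 0.21, all on the log2 scale.

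Several of these calls were lost when any 1 of several libraries was left out, with fewer samples in each such fit. In WT the SQLE call was lost without Tm library 1 (adjusted p = 0.199) or 2 (0.059) and without DMSO library 1 (0.159) or 2 (0.0704), with 0.00212 to 0.199 over all alternatives, and its log2 change in those fits was -0.25 to -0.38. The MSMO1 call was lost without Tm library 1 (adjusted p = 0.15) or 3 (0.0703) and without DMSO library 1 (0.12) or 3 (0.089), with 0.0247 to 0.295 over all alternatives, at log2 0.38 to 0.48. EBP was lost in WT without Tm library 1 (adjusted p = 0.143) or 3 (0.161) and without DMSO library 1 (0.0779), 2 (0.0935) or 3 (0.114), with 0.00911 to 0.161 over all alternatives, at log2 -0.43 to -0.54. In QRICH1 KO NSDHL was lost without Tm library 1 (adjusted p = 0.102) or 2 (0.0786) and without DMSO library 1 (0.06), 2 (0.09) or 3 (0.0594), with 0.0167 to 0.102 over all alternatives, at log2 0.34 to 0.42. DHCR7 was lost in QRICH1 KO without Tm library 2 (adjusted p = 0.0528) or 3 (0.0841) and without DMSO library 1 (0.0776) or 2 (0.0838), with 0.00142 to 0.0841 over all alternatives, at log2 -0.33 to -0.39. Some calls were also lost with every library of the compared groups kept. In WT these were SQLE with only the 2 groups fitted (adjusted p = 0.0589), MSMO1 under library totals (0.295) and EBP with DESeq2 size factors (0.0527). In QRICH1 KO NSDHL was lost under library totals (0.0818). Without both QRICH1 KO libraries 3, NSDHL (0.0554) and DHCR7 (0.0528) were lost in QRICH1 KO and EBP (0.0504) in WT. Sequence copies can also share reads: 2 pseudogenes carry the name of HSD17B7, 3 that of CYP51A1 and 8 that of FDPS in the annotation, and how reads with several matches were counted is not given in the sources used here.

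**Figure D3:**
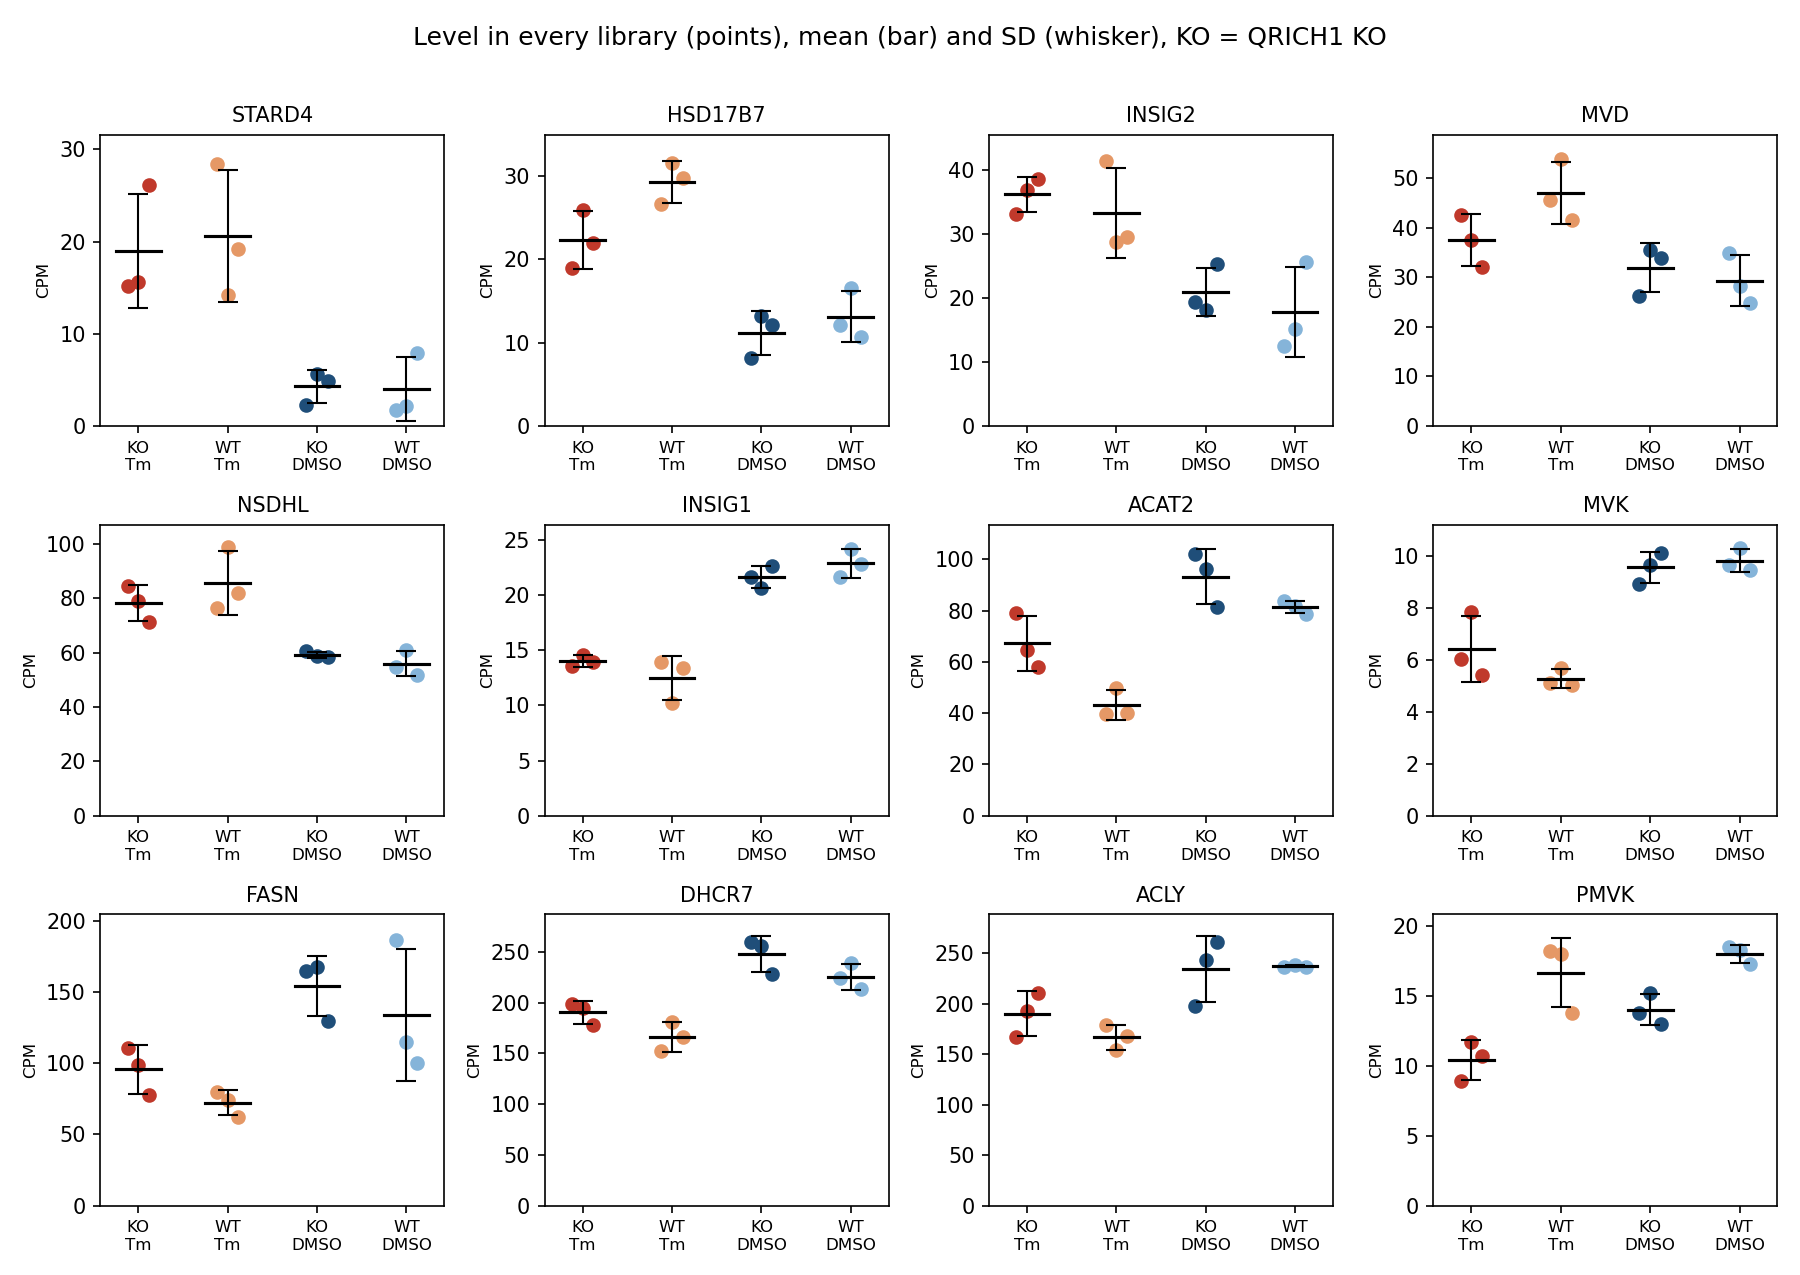
Level in CPM of 12 genes in every library (points), with the group mean (bar) and SD (whisker), for QRICH1 KO Tm, WT Tm, QRICH1 KO DMSO and WT DMSO. STARD4, HSD17B7 and INSIG2 stand higher in both Tm groups, INSIG1, ACAT2, MVK and FASN lower, and PMVK is lowest in QRICH1 KO Tm.

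The INSIG genes, whose products hold SCAP in the ER, moved in opposite directions. INSIG2 measured 33.2, 36.8 and 38.6 CPM in QRICH1 KO Tm and 41.4, 28.8 and 29.6 CPM in WT Tm, against 19.3, 18.2 and 25.3 CPM in QRICH1 KO DMSO and 12.5, 15.2 and 25.7 CPM in WT DMSO. All Tm libraries were above all DMSO libraries, with library 3 the highest in each DMSO group. INSIG2 rose 1.73-fold in QRICH1 KO (log2 0.79, SE 0.213, adjusted p = 0.0169) and 1.85-fold in WT (log2 0.89, SE 0.218, adjusted p = 0.00568). INSIG1 measured 13.6, 14.6 and 13.9 CPM in QRICH1 KO Tm and 13.9, 10.2 and 13.4 CPM in WT Tm, against 21.6, 20.6 and 22.6 CPM in QRICH1 KO DMSO and 21.6, 24.2 and 22.8 CPM in WT DMSO. Here all Tm libraries were below all DMSO libraries. INSIG1 fell with a log2 change of -0.62 (SE 0.147, adjusted p = 0.0072) in QRICH1 KO and -0.88 (SE 0.151, adjusted p = 0.000285) in WT. Per kilobase of exon, the ratio of INSIG2 to INSIG1 was 2.26, 2.32 and 2.56 in QRICH1 KO Tm and 2.74, 2.62 and 2.05 in WT Tm, against ratios of 0.827, 0.818 and 1.03 in QRICH1 KO DMSO and ratios of 0.535, 0.582 and 1.04 in WT DMSO. INSIG2 was thus the more abundant of the pair in every Tm library and the less abundant or near equal in the DMSO libraries.

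SREBF2, which encodes the factor most tied to sterol genes, measured 42, 49.5 and 42.2 CPM in QRICH1 KO Tm and 41.8, 47.7 and 40.7 CPM in WT Tm, against 56.3, 60.7 and 55.2 CPM in QRICH1 KO DMSO and 58.2, 58.8 and 51 CPM in WT DMSO. All Tm libraries were below all DMSO libraries by a small margin. Its log2 fold change was -0.37 (SE 0.115, adjusted p = 0.0373) in QRICH1 KO and -0.36 (SE 0.116, adjusted p = 0.0297) in WT. SREBF1, whose product is tied more to fatty acid genes, averaged 7.06 ± 2.78 CPM in QRICH1 KO Tm and 9.08 ± 1.76 CPM in WT Tm, against 7.44 ± 1.48 CPM in QRICH1 KO DMSO and 6.56 ± 0.922 CPM in WT DMSO (SD, n = 3 each). It was not called, with a log2 change of -0.08 in QRICH1 KO and 0.45 (adjusted p = 0.265) in WT, and 556 of its exon bases are shared with RAI1 on the other strand. SCAP had -0.22 and 0.07 and was not called. In QRICH1 KO the SREBF2 call was lost without Tm library 1 (adjusted p = 0.12) or 3 (0.129) and without DMSO library 1 (0.0771) or 2 (0.147), with 0.00753 to 0.147 over all alternatives. In WT it was lost without Tm library 1 (adjusted p = 0.12) or 3 (0.108) and without DMSO library 1 (0.0791) or 2 (0.112), with 0.00157 to 0.12 over all alternatives. Without a filter on low counts the SREBF2 call was lost in both genotypes (adjusted p = 0.0709 in QRICH1 KO and 0.0695 in WT). In QRICH1 KO it was also lost with only the 2 groups fitted (0.0528) and without both libraries 3 (0.13). The INSIG2 call in QRICH1 KO was lost without Tm library 2 (adjusted p = 0.0529) or 3 (0.0574), without DMSO library 1 (0.0583) or 2 (0.0869) and, as in WT (0.0615), under library totals alone (0.0897). Over all alternatives its adjusted p was 4.5e-05 to 0.0897 in QRICH1 KO and 1.9e-06 to 0.0615 in WT. INSIG1 was called under all 14 alternatives in WT and was lost in QRICH1 KO only without both libraries 3 (adjusted p = 0.0561, with 0.000999 to 0.0561 over all alternatives).

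STARD4, whose product carries cholesterol between membranes, had the largest change of the 32 tested genes. It measured 15.2, 15.6 and 26.1 CPM in QRICH1 KO Tm and 28.4, 14.2 and 19.2 CPM in WT Tm, against 2.32, 5.68 and 4.88 CPM in QRICH1 KO DMSO and 1.77, 2.19 and 7.96 CPM in WT DMSO. All Tm libraries were above all DMSO libraries, and WT DMSO library 3 stood above the other 2 of its group. STARD4 rose 4.46-fold in QRICH1 KO (log2 2.16, SE 0.42, adjusted p = 0.00158) and 5-fold in WT (log2 2.32, SE 0.433, adjusted p = 0.000621). Without WT DMSO library 3 the WT value became 3.34 on the log2 scale, and it was called under all 14 alternatives in both genotypes, with an adjusted p of at most 0.0153 in QRICH1 KO and 0.00692 in WT. NPC1, whose product lets cholesterol out of lysosomes, averaged 34.4 ± 3.67 CPM in QRICH1 KO Tm and 36.5 ± 4.66 CPM in WT Tm, against 28.6 ± 8.86 CPM in QRICH1 KO DMSO and 31.3 ± 7.21 CPM in WT DMSO (SD, n = 3 each). It was not called in either genotype (log2 0.27, adjusted p = 0.419 in QRICH1 KO and log2 0.21, adjusted p = 0.508 in WT). NPC1 shares 604 exon bases with RMC1 on the other strand, which had a log2 change of 0.50 (adjusted p = 0.0512) in QRICH1 KO and 0.88 (adjusted p = 0.000836) in WT.

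In fatty acid synthesis 0 of 7 tested genes rose in either genotype, 1 fell in QRICH1 KO and 3 fell in WT. Of all tested genes, 9.09% rose and 6.53% fell in QRICH1 KO, and 12.6% rose and 11.1% fell in WT. The 3 that fell in WT were ACLY, ACACA, the acetyl-CoA carboxylase that makes malonyl-CoA, and FASN, the synthase that builds palmitate. They are successive steps, a grouping seen only after their values were known. FASN measured 111, 98.5 and 77.5 CPM in QRICH1 KO Tm and 79.8, 74.4 and 62.5 CPM in WT Tm, against 165, 168 and 130 CPM in QRICH1 KO DMSO and 187, 115 and 100 CPM in WT DMSO. The Tm libraries were below the DMSO libraries within each genotype, and WT DMSO library 1 was high. FASN fell with a log2 change of -0.69 (SE 0.191, adjusted p = 0.0193) in QRICH1 KO and -0.88 (SE 0.193, adjusted p = 0.00251) in WT. ACLY measured 167, 193 and 211 CPM in QRICH1 KO Tm and 179, 154 and 168 CPM in WT Tm, against 198, 244 and 261 CPM in QRICH1 KO DMSO and 237, 239 and 237 CPM in WT DMSO. The QRICH1 KO groups overlapped and the WT groups were apart, with a log2 change of -0.30 (SE 0.118, adjusted p = 0.1) in QRICH1 KO and -0.51 (SE 0.119, adjusted p = 0.00417) in WT. ACACA measured 128, 127 and 127 CPM in QRICH1 KO Tm and 103, 95.3 and 113 CPM in WT Tm, against 177, 165 and 135 CPM in QRICH1 KO DMSO and 165, 146 and 117 CPM in WT DMSO. Its groups were apart within each genotype, with a log2 change of -0.32 (SE 0.129, adjusted p = 0.105) in QRICH1 KO and -0.46 (SE 0.131, adjusted p = 0.0153) in WT.

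The later fatty acid genes were not called. SCD had a log2 change of 0.15 in QRICH1 KO and -0.05 in WT, and the elongase gene ELOVL6 had -0.18 and -0.23. LPIN1 had -0.31 and 0.40 with wide errors (SE 0.428 and 0.412). FADS1, at 1.35, 0.702 and 0.875 CPM in QRICH1 KO Tm and 1.64, 2.56 and 1.69 CPM in QRICH1 KO DMSO, had the lowest log2 value of the set in QRICH1 KO, -0.97 (SE 0.398, adjusted p = 0.112), beside -0.04 in WT, and it had only 6 to 37 counts a library. FADS2 had 0 counts in QRICH1 KO Tm libraries 1 and 3, which allows up to 0.227 and 0.243 CPM, and 0.468 CPM in library 2. FADS1 and FADS2 lie on opposite strands and share 490 exon bases. In WT the ACACA call was lost without Tm library 2 (adjusted p = 0.061) and without DMSO library 1 (0.0813) or 2 (0.0554), with 0.00105 to 0.0813 over all alternatives. In QRICH1 KO ACACA was called without DMSO library 3 (adjusted p = 0.0359) and ACLY without DMSO library 1 (0.039). The FASN call in QRICH1 KO was lost without Tm library 2 (adjusted p = 0.0568) or 3 (0.0933) and without DMSO library 1 (0.0607) or 2 (0.0854), with 4.06e-06 to 0.0933 over all alternatives, while in WT it was called under all 14.

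Summed over its 8 genes, the fatty acid branch took 608, 668 and 696 CPM in QRICH1 KO Tm and 614, 538 and 575 CPM in WT Tm, against 742, 806 and 784 CPM in QRICH1 KO DMSO and 816, 750 and 706 CPM in WT DMSO. All Tm sums were below all DMSO sums. The branch from squalene to cholesterol, the largest by sum, had 1070 ± 48 CPM in QRICH1 KO Tm and 1002 ± 90.8 CPM in WT Tm, against 1137 ± 51.6 CPM in QRICH1 KO DMSO and 1060 ± 69.5 CPM in WT DMSO (SD, n = 3 each), and its Tm and DMSO libraries overlapped in both genotypes. The mevalonate sum was 230 ± 19.3 CPM in QRICH1 KO Tm and 212 ± 8.3 CPM in WT Tm, against 250 ± 6.49 CPM in QRICH1 KO DMSO and 243 ± 6.62 CPM in WT DMSO. All 33 genes together made up 0.214% to 0.221% of the scaled counts in QRICH1 KO Tm and 0.195% to 0.205% in WT Tm, against 0.232% to 0.247% in QRICH1 KO DMSO and 0.212% to 0.235% in WT DMSO. These sums are a description without a test and are set mainly by the abundant genes.

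**Figure D4:**
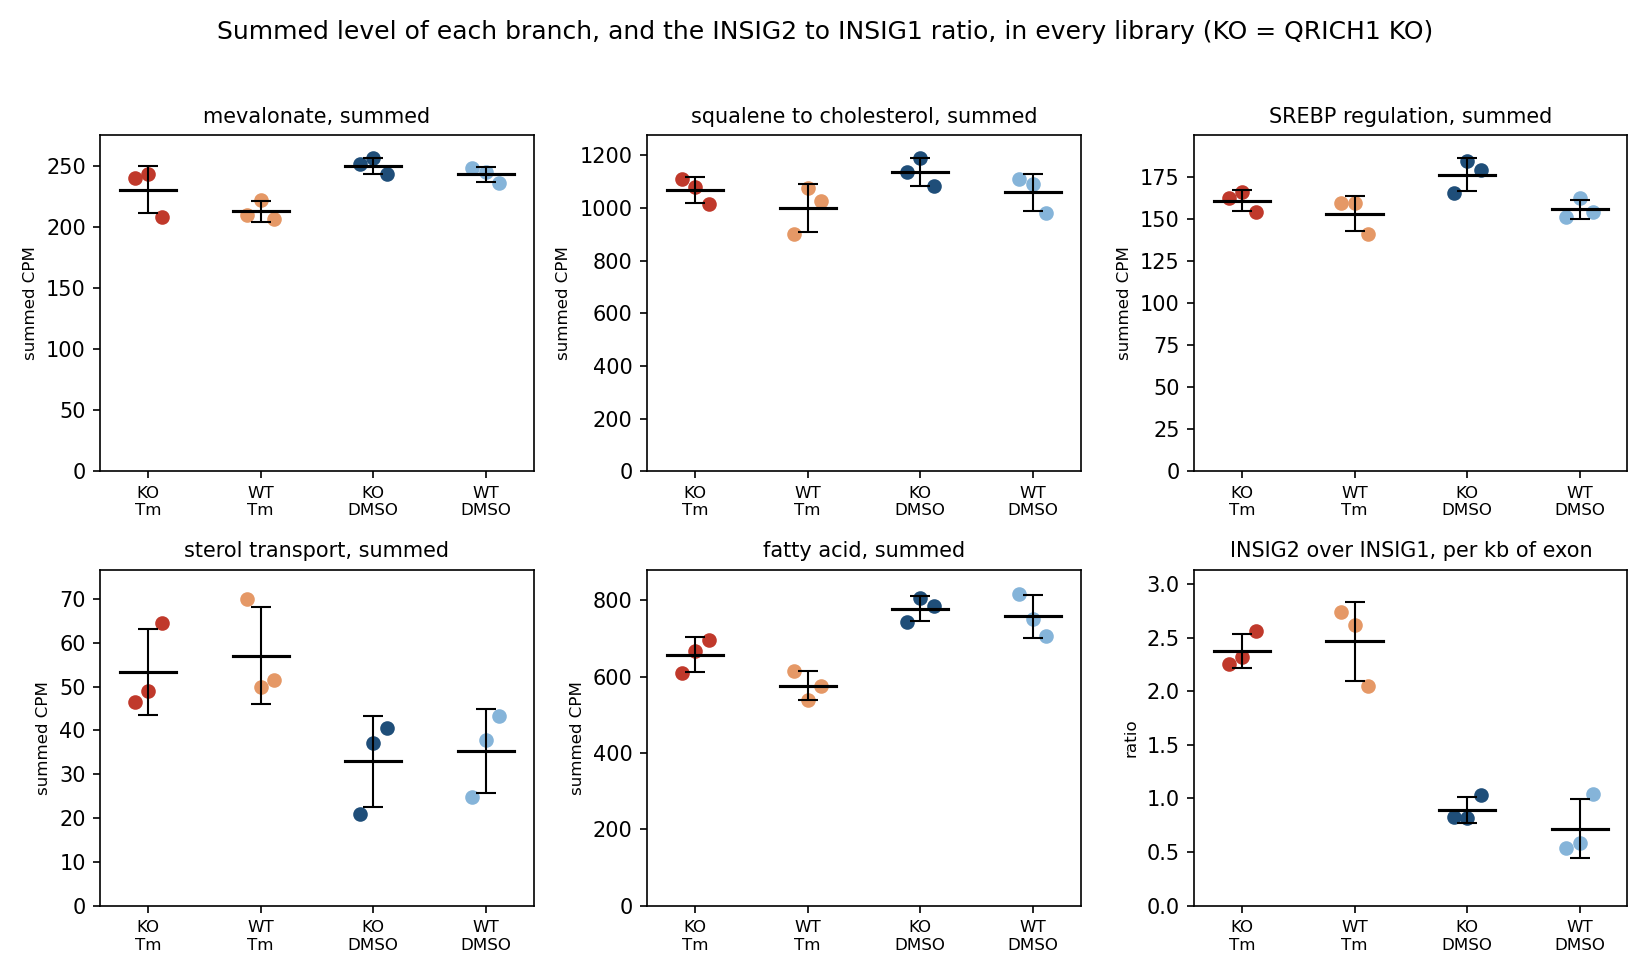
Summed CPM of each branch in every library (points) with the group mean (bar) and SD (whisker), and in the last panel the INSIG2 to INSIG1 ratio per kilobase of exon. The fatty acid sums of all Tm libraries lie below those of all DMSO libraries, and the ratio is at least 2.05 in every Tm library and at most 1.04 in every DMSO library.

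Whether QRICH1 KO cells responded differently was asked with an interaction term, the log2 change with Tm in QRICH1 KO minus the log2 change with Tm in WT. By edgeR's quasi-likelihood test 0 of the 32 genes, and 0% of all 11323, passed an adjusted p of 0.05 in either direction. At an unadjusted p under 0.05 there were 774 genes in all and 1 member, ACAT2, with an interaction of 0.44 on the log2 scale (SE 0.188, unadjusted p = 0.0313, adjusted p = 0.698). DESeq2 called 0 members, with 8 genes higher and 36 lower over the whole table. The 10 members called with Tm in QRICH1 KO, 4 higher and 6 lower, were all called in the same direction in WT. The 6 called in WT alone (MVD, MSMO1, SQLE, EBP, ACLY and ACACA) are therefore not shown to differ between the genotypes. Across the 32 genes, the responses of QRICH1 KO and WT, which share no library, had a Pearson correlation of 0.883, or 0.795 without STARD4, and the same sign for 26. This is a description over genes measured in the same libraries, not over replicates.

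Under Tm, 1 of 32 genes was higher in QRICH1 KO than in WT and 1 was lower (3.12% each), against 0.406% and 0.76% of all tested genes. Both belong to the mevalonate branch and both share their Tm libraries with the responses above. ACAT2, given per library above, averaged 67.2 ± 10.7 CPM in QRICH1 KO Tm and 43.3 ± 5.75 CPM in WT Tm (SD, n = 3 each), which is 1.55-fold higher in QRICH1 KO (log2 0.63, SE 0.135, adjusted p = 0.0253). PMVK measured 8.89, 11.7 and 10.7 CPM in QRICH1 KO Tm and 18.2, 18 and 13.8 CPM in WT Tm, against 13.8, 15.2 and 13 CPM in QRICH1 KO DMSO and 18.5, 18.3 and 17.3 CPM in WT DMSO. The QRICH1 KO libraries were below the WT libraries under Tm and also under DMSO. PMVK was 1.62-fold lower in QRICH1 KO under Tm (log2 -0.70, SE 0.165, adjusted p = 0.0469), and under DMSO the log2 value was -0.36 (SE 0.158, unadjusted p = 0.0342, adjusted p = 0.51). Both calls were lost when any 1 of several Tm libraries was left out, at folds of similar size. ACAT2 was lost without QRICH1 KO Tm library 1 (adjusted p = 0.144) or 2 (0.0813) and without WT Tm library 1 (0.154) or 3 (0.12), with 0.0011 to 0.154 over all alternatives, and its log2 value in those fits was 0.50 to 0.66. PMVK was lost without QRICH1 KO Tm library 1 (adjusted p = 0.202), 2 (0.09) or 3 (0.105) and without WT Tm library 1 (0.163) or 2 (0.148), with 0.00606 to 0.202 over all alternatives, at log2 -0.59 to -0.78. Without both QRICH1 KO libraries 3 the adjusted p of PMVK was 0.0904. In each of these settings the direction was the same. The stress genes also differed under Tm, 3 of the 6 being lower in QRICH1 KO, among them HSPA5 (log2 -0.76, adjusted p = 0.00484), and the part of this in the values of ACAT2 and PMVK was not tested.

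Of the 30 genes not called under Tm, 3 had QRICH1 KO libraries wholly below the WT libraries. HSD17B7 had a log2 value of -0.40 (95% interval -0.80 to 0.01, adjusted p = 0.383), FADS1 -0.96 (-1.82 to -0.09, adjusted p = 0.321) and LPIN1 -0.94 (-1.85 to -0.04, adjusted p = 0.353). HMGCS1, with 0.33 (-0.09 to 0.76, adjusted p = 0.505), and ACACA, with 0.30 (0.02 to 0.57, adjusted p = 0.337), had QRICH1 KO libraries wholly above. Groups without overlap were found for 7 of the 32 genes in this comparison, against 18.5% of all genes. STARD4 differed by -0.12 (-0.93 to 0.69), INSIG2 by 0.12 (-0.33 to 0.56) and INSIG1 by 0.17 (-0.15 to 0.50), none of them called.

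Without stress the genotypes could not be told apart in this set. Under DMSO 0 of 32 genes passed edgeR's test in either direction, against 0.0177% of all genes higher and 0.0795% lower. DESeq2 called 0 members. At an unadjusted p under 0.05 there were 1027 of all 11323 genes, and 2 of the 32 members, PMVK as above and SCAP. SCAP measured 59.3, 77.3 and 69.7 CPM in QRICH1 KO DMSO and 52.3, 55.8 and 49 CPM in WT DMSO, groups that did not overlap, with a log2 value of 0.39 (SE 0.133, unadjusted p = 0.00868, adjusted p = 0.365). Those 2 were also the only members of the 32 whose groups did not overlap, against 13.5% of all genes.

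**Figure D5:**
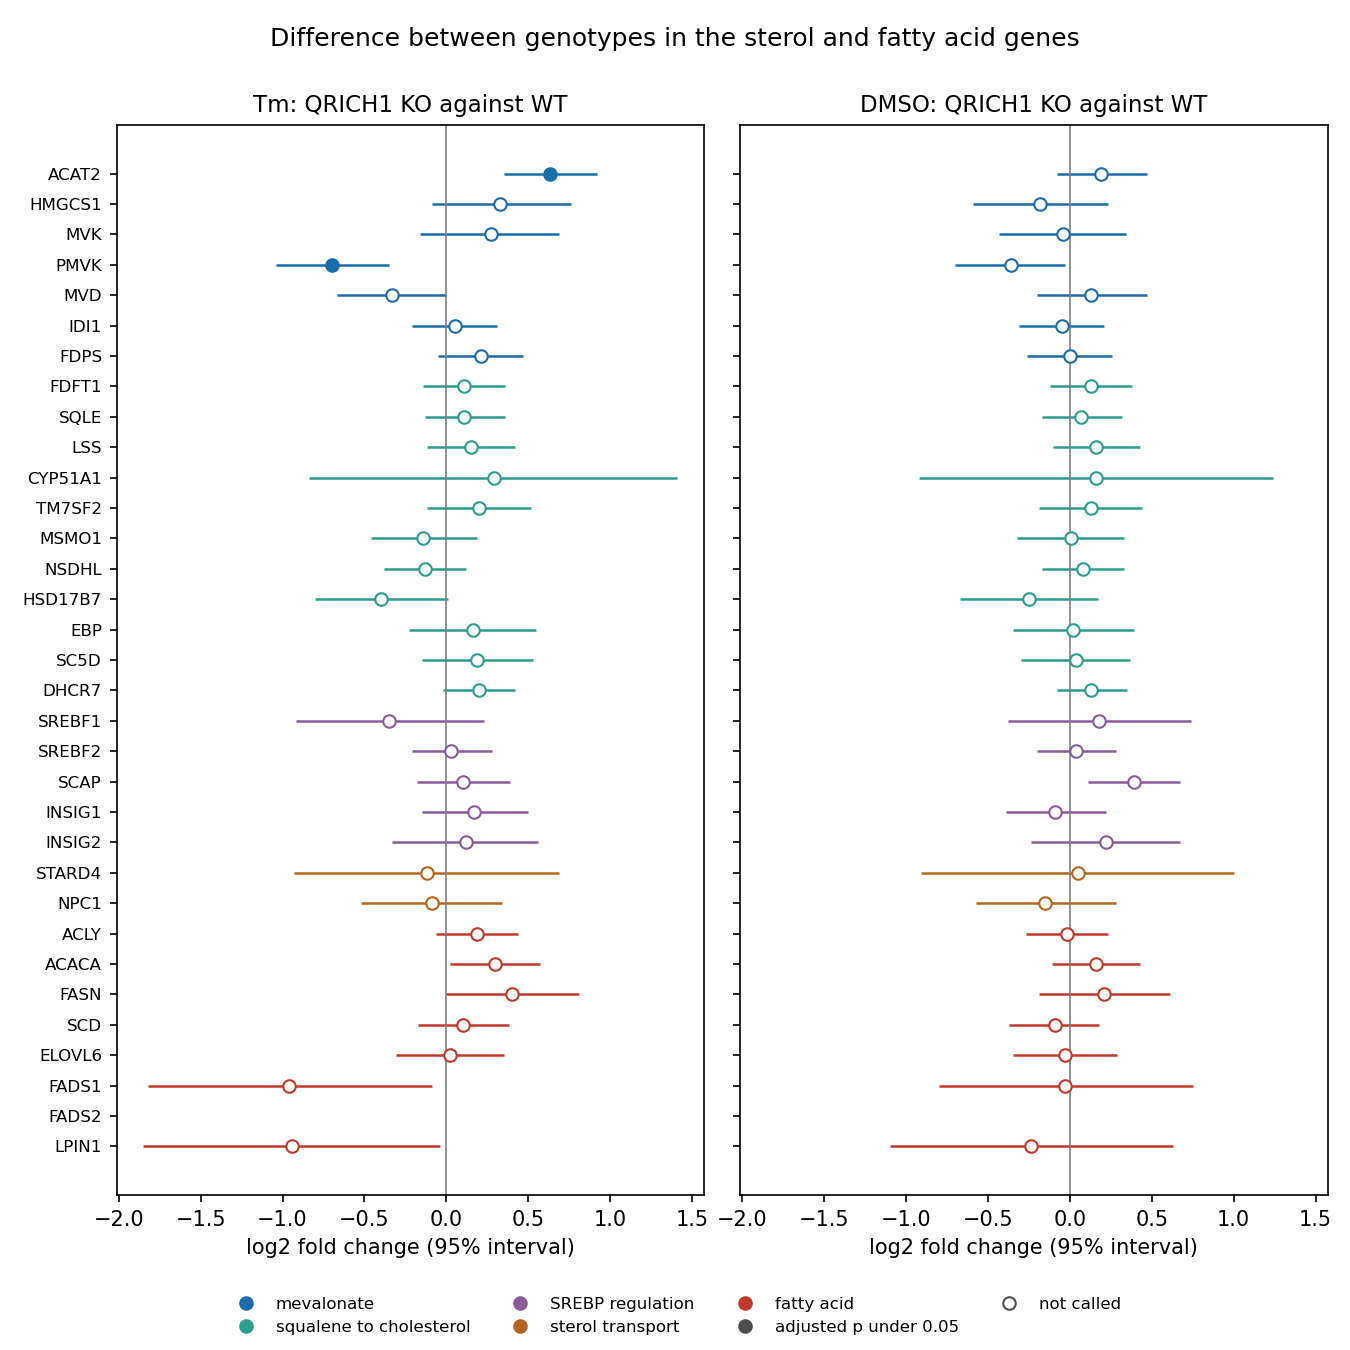
Log2 fold change of each gene in QRICH1 KO against WT, under Tm on the left and DMSO on the right, with 95% intervals and colours for the 5 branches. Only ACAT2 at 0.63 and PMVK at -0.70 under Tm are filled, which marks an adjusted p under 0.05.

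Genes of the same pathways outside the 33 were counted beside all genes. Of 12 other sterol enzymes and SREBP proteases, 1 rose and 1 fell in QRICH1 KO (8.33% each, against 9.09% and 6.53% of all genes), and 1 rose and 2 fell in WT (8.33% and 16.7%, against 12.6% and 11.1%). TMEM97, a sterol-regulated binding partner of NPC1, had -0.17 in QRICH1 KO (adjusted p = 0.39) and fell in WT (log2 -0.69, adjusted p = 0.000425). RNF139, an ER ubiquitin ligase, had 0.41 (adjusted p = 0.0389) in QRICH1 KO and 0.45 (adjusted p = 0.0182) in WT, and was lost in QRICH1 KO without Tm library 2 (adjusted p = 0.115) or 3 (0.113) or DMSO library 1 (0.0849) or 2 (0.183), and in WT without Tm library 1 (0.0525) or 3 (0.0868) or DMSO library 1 (0.0774) or 2 (0.0518). Over all alternatives its adjusted p was 0.0233 to 0.245 in QRICH1 KO and 0.00782 to 0.267 in WT. Under library totals the RNF139 call was lost in both genotypes (0.245 in QRICH1 KO and 0.267 in WT). In QRICH1 KO it was also lost without both libraries 3 (0.071).

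Of 16 genes of sterol transport, esterification and efflux, 14 were tested. In QRICH1 KO 3 rose and 1 fell (21.4% and 7.14%, against 9.09% and 6.53% of all genes), and in WT 3 rose and 2 fell (21.4% and 14.3%, against 12.6% and 11.1%). LIPA, the lysosomal acid lipase that frees cholesterol from its esters, rose in both genotypes (log2 0.76, adjusted p = 0.00127 in QRICH1 KO and log2 1.51, adjusted p = 3.97e-07 in WT). OSBP, an oxysterol-binding protein of the ER and Golgi, rose by 0.78 in QRICH1 KO and 1.07 in WT on the log2 scale, and the sterol exporter gene ABCG1 by 0.87 and 0.97. Under Tm 1 of the 14 was higher in QRICH1 KO than in WT and 1 lower (7.14% each, against 0.406% and 0.76% of all genes). LIPA measured 28.4, 35.7 and 37.7 CPM in QRICH1 KO Tm and 56.3, 48.9 and 49.3 CPM in WT Tm, groups that did not overlap (log2 -0.60, SE 0.143, adjusted p = 0.0465). LRP8, a lipoprotein receptor named here after its values were seen, measured 76.4, 81 and 72.3 CPM in QRICH1 KO Tm and 54.6, 48.5 and 58.8 CPM in WT Tm (log2 0.51, SE 0.11, adjusted p = 0.0278). With Tm against DMSO LRP8 was 1 of the 2 falls in WT (log2 -0.54, adjusted p = 0.0014). In QRICH1 KO its log2 change with Tm was -0.11 (adjusted p = 0.539). The LIPA difference was lost without QRICH1 KO Tm library 1 (adjusted p = 0.205), 2 (0.13) or 3 (0.0591) and without WT Tm library 1 (0.171), 2 (0.109) or 3 (0.106), with 0.00499 to 0.205 over all alternatives. It was also lost under library totals (0.156). The LRP8 difference was lost without QRICH1 KO Tm library 1 (adjusted p = 0.0948), 2 (0.147) or 3 (0.0523) and without WT Tm library 1 (0.111) or 2 (0.137), with 0.00172 to 0.147 over all alternatives. The ABCG1 rise in QRICH1 KO was lost without Tm library 2 (adjusted p = 0.0607) or DMSO library 2 (0.0737) or 3 (0.0548), with 0.0021 to 0.0946 over all alternatives. It was also lost without both libraries 3 (0.0946).

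Of 20 other genes of fatty acid synthesis, activation and elongation, 16 were tested. In QRICH1 KO 2 rose and 2 fell (12.5% each, against 9.09% and 6.53% of all genes), and in WT 3 rose and 2 fell (18.8% and 12.5%, against 12.6% and 11.1%). SLC25A1, the mitochondrial citrate carrier that supplies ACLY, fell in both genotypes (log2 -0.90, adjusted p = 0.00954 in QRICH1 KO and log2 -1.30, adjusted p = 0.000384 in WT). It measured 64.9, 61.2 and 47.9 CPM in QRICH1 KO Tm and 28, 35 and 38.3 CPM in WT Tm, against 140, 106 and 78.3 CPM in QRICH1 KO DMSO and 56.5, 76.9 and 114 CPM in WT DMSO. All Tm libraries were below the DMSO libraries of their genotype. Under Tm the QRICH1 KO libraries also lay above the WT libraries, 1.72-fold on average (log2 0.78, SE 0.23), which edgeR did not call (adjusted p = 0.12). It was called by DESeq2 (adjusted p = 0.0451), without a filter on low counts (1.44e-05) and with only the 2 groups fitted (0.018), within 1.44e-05 to 0.359 over all alternatives. HACD3, a dehydratase of fatty acid elongation, also fell in both (log2 -0.52 and -0.76). ME1, an enzyme that supplies NADPH to lipid synthesis, rose in QRICH1 KO (log2 0.30, adjusted p = 0.046) and in WT (log2 0.57, adjusted p = 0.000323). In QRICH1 KO the SLC25A1 call was lost without Tm library 3 (adjusted p = 0.0528) or DMSO library 1 (0.0606), with 2.19e-09 to 0.0606 over all alternatives. The ME1 call there was lost without Tm library 1 (adjusted p = 0.0801), 2 (0.132) or 3 (0.0949) or DMSO library 1 (0.118) or 2 (0.172), with 0.0142 to 0.305 over all alternatives. It was also lost with DESeq2 size factors (0.053), under library totals (0.305), without a filter on low counts (0.168) and with only the 2 groups fitted (0.0668).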

How the data were processed

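RNA from 12 libraries of HT29 cells was measured by RNA-seq with a modified Smart-seq2 method, per the labels' protocols. The authors deposited 1 table of raw counts per gene, whole numbers without molecular identifiers. The submitters' processing notes name Trimmomatic, STAR, DESeq2 and hg38, while their versions and the strand setting are not given.

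Of 20015 identifiers, 19893 matched a gene symbol. Exon lengths and overlaps came from GENCODE 29. Counts were fitted in edgeR 4.0.16 (R 4.3.3) with TMM scaling, the filterByExpr filter with a minimum count of 10 (11323 genes), 4 group means and the quasi-likelihood test. The biological coefficient of variation was 0.155. Benjamini-Hochberg adjustment ran over the 11323 genes, with the threshold for a call at 0.05. Intervals are 95%. Levels are CPM computed from the counts with TMM scaling, and CPM per kb divides by exon length. The floor is 3 counts of a library's total.

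All 33 genes are named. Values in every library are given for up to 4 called members a branch with the largest change with Tm in WT and for members called between genotypes, and from each other list up to 3 called genes with the largest change are named. One gene that this rule selects is not reported here. The members and lists were chosen with earlier results of these data known. The series text calls the samples biological replicates. The procedure was tested on simulated data with 200 changed genes. Alternatives were DESeq2 1.42.0, its size factors in edgeR, library totals alone, other filters, a replicate block, only the groups compared, leaving out both QRICH1 KO libraries 3 and leaving out each library.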

Additional observations from a re-analysis of the deposited data

How the results depend on the processing

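No called member changed direction under any alternative. Member counts called were identical with DESeq2, with a CPM minimum of 1 in 3 libraries and with the replicate number as a block (4 higher and 6 lower in QRICH1 KO, 6 higher and 10 lower in WT, 1 and 1 between genotypes under Tm). Some other settings gave fewer falls, and library totals alone gave more. Without a filter on low counts, and also with only the 2 groups fitted, 4 rose and 4 fell in QRICH1 KO and 6 rose and 9 fell in WT. DESeq2 size factors in edgeR gave 9 falls in WT and 6 in QRICH1 KO. The labels do not say whether equal replicate numbers pair the samples, and the values do not settle it. Same-numbered libraries of different groups correlated at -0.186 to 0.265 over 18 pairs, 6 of them over 0.1. In 17 of 36 comparisons the best match had the same number. The highest value, 0.265, was between the libraries 3 of QRICH1 KO Tm and QRICH1 KO DMSO. The lowest, -0.186, was between the libraries 1 of WT Tm and QRICH1 KO DMSO. With library totals alone QRICH1 KO had 2 higher and 10 lower, and all genes split 700 higher to 1226 lower in QRICH1 KO, against 1029 to 739 with TMM, and 893 to 2245 in WT, against 1431 to 1259. Without both QRICH1 KO libraries 3, 2 members fell in QRICH1 KO. Leaving out 1 library gave 2 to 3 higher and 1 to 6 lower in QRICH1 KO, 5 to 6 higher and 6 to 9 lower in WT, and 0 to 1 in each direction between genotypes under Tm. PMVK, the 1 lower member there, was also lost, leaving 0, under library totals, without both QRICH1 KO libraries 3 and with only the 2 groups fitted. Under DMSO and for the interaction 0 members were called in all alternatives. Of 28 calls, 12 held under all alternatives. Losses without a library come with fewer samples. Some calls were also lost with every library of the compared groups kept, under other scaling, without the filter on low counts or with only the 2 groups fitted. At 3 libraries a group the depth limits FADS2, FADS1, CYP51A1 and LPIN1 most.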

Other observations

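The branch of the mevalonate pathway that leaves farnesyl diphosphate for dolichol, the lipid on which N-glycans are built and the substrate of the enzyme that tunicamycin blocks, was measured by 12 genes of the dolichol, ubiquinone and prenyl routes. In QRICH1 KO 2 rose and 0 fell with Tm, and in WT 2 rose and 1 fell. These are 16.7% and 0% in QRICH1 KO, against 9.09% and 6.53% of all genes, and 16.7% and 8.33% in WT, against 12.6% and 11.1%. The 2 were NUS1 and DHDDS, which encode the subunits of the enzyme that makes the dolichol chain. NUS1 measured 12.5, 12.5 and 12.7 CPM in QRICH1 KO Tm and 14.8, 11.1 and 15.8 CPM in WT Tm, against 5.14, 5.89 and 6.13 CPM in QRICH1 KO DMSO and 5.44, 3.9 and 6.7 CPM in WT DMSO. All Tm libraries were above all DMSO libraries, with log2 1.14 (adjusted p = 0.000908) in QRICH1 KO and 1.38 (adjusted p = 0.000105) in WT. DHDDS rose by 0.70 in QRICH1 KO (adjusted p = 0.00101) and 0.71 in WT (adjusted p = 0.000592) on the log2 scale. SRD5A3, the polyprenol reductase gene that completes dolichol, had log2 -0.33 in QRICH1 KO (adjusted p = 0.353) and fell in WT (log2 -0.73, adjusted p = 0.0261), a call lost without any 1 of Tm library 1 (adjusted p = 0.0542), 2 (0.091) or 3 (0.0536) or DMSO library 1 (0.0745) or 3 (0.0697), with 0.00644 to 0.091 over all alternatives. The SRD5A3 call was also lost without a filter on low counts (adjusted p = 0.0792) and with only the 2 groups fitted (0.0549). NUS1 and DHDDS were called under all 14 alternatives in both genotypes.

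Of 21 tested genes of phospholipid and triglyceride synthesis and lipid droplets, 1 rose and 2 fell in QRICH1 KO (4.76% and 9.52%, against 9.09% and 6.53% of all genes), and 2 rose and 3 fell in WT (9.52% and 14.3%, against 12.6% and 11.1%), shares near those of all genes. DGAT2, which makes triglyceride from diacylglycerol, measured 2.14, 1.76 and 2.78 CPM in QRICH1 KO Tm and 2.56, 2.6 and 1.82 CPM in WT Tm, against 11.5, 8.32 and 8.82 CPM in QRICH1 KO DMSO and 7.35, 10.6 and 8.86 CPM in WT DMSO. It fell 4.22-fold in QRICH1 KO (adjusted p = 1.14e-05) and 3.78-fold in WT (adjusted p = 2.13e-05) and was called under all 14 alternatives in both. The droplet coat gene PLIN2 had log2 0.32 in QRICH1 KO (adjusted p = 0.356) and rose in WT (log2 0.71, adjusted p = 0.023). That call was lost without Tm library 1 (adjusted p = 0.0981) or 2 (0.0709) or DMSO library 1 (0.0888), with 0.00324 to 0.15 over all alternatives. It was also lost under library totals (0.15). LPIN2, a relative of LPIN1, rose in QRICH1 KO (log2 0.77, adjusted p = 0.0162) and in WT (log2 0.62, adjusted p = 0.0372). It was lost in QRICH1 KO without Tm library 3 (adjusted p = 0.117) or DMSO library 1 (0.0793), with 5.05e-06 to 0.117 over all alternatives. In WT it was lost without Tm library 1 (adjusted p = 0.167) or 3 (0.0666) or DMSO library 1 (0.135) or 2 (0.0823), with 0.000284 to 0.234 over all alternatives. Under library totals the LPIN2 call was lost in both genotypes (adjusted p = 0.0959 in QRICH1 KO and 0.234 in WT). Of 15 tested genes of fatty acid oxidation, 0 rose and 2 fell in QRICH1 KO (0% and 13.3%, against 9.09% and 6.53% of all genes), and 1 rose and 2 fell in WT (6.67% and 13.3%, against 12.6% and 11.1%). HADH, a dehydrogenase of mitochondrial oxidation, fell by 0.56 in QRICH1 KO (adjusted p = 0.000966) and 1.01 in WT (adjusted p = 8.29e-07) on the log2 scale, and was called under all 14 alternatives in both. CPT1A, which admits fatty acids to mitochondria, fell by 0.50 in QRICH1 KO (adjusted p = 0.0201) and 0.81 in WT (adjusted p = 0.000315). Its QRICH1 KO call was lost without Tm library 1 (adjusted p = 0.0623) or 2 (0.107) or DMSO library 1 (0.0503) or 3 (0.0551), with 0.00709 to 0.107 over all alternatives. HADHB rose in WT (log2 0.36, adjusted p = 0.0175), a call lost without Tm library 2 (adjusted p = 0.0527) or 3 (0.0626) or DMSO library 3 (0.0765), with 0.00463 to 0.169 over all alternatives. The HADHB rise in WT was also lost under library totals (adjusted p = 0.169). Under Tm HADHB measured 100, 97.4 and 95.9 CPM in QRICH1 KO and 122, 133 and 135 CPM in WT, groups that did not overlap. edgeR did not call this difference (log2 -0.41, SE 0.106, adjusted p = 0.0726), whereas DESeq2 did (log2 -0.43, adjusted p = 0.00615).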
